A study of Ovis aries with 6 samples.

Results

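HOX genes encode homeodomain transcription factors and lie in 4 clusters, named HOXA to HOXD. In the gene table of sheep adipose stromal cells, the HOX cluster genes were taken as every row whose symbol was HOX, then A, B, C or D, then a number. The rule found 35 of 26425 rows, with 34 different symbols, since HOXA5 named 2 rows. Of these, 21 averaged 1 FPKM or more across the 6 libraries and 14 did not. FPKM counts sequenced fragments scaled to gene length and library size, so it allows levels to be compared between genes as far as the listed gene lengths are right.

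The cells came from the stromal vascular fraction of sheep (Ovis aries) adipose tissue, the mixed fraction that holds adipocyte precursors, and the sample labels give their cell type as adipocyte. In 3 libraries MEOX2 was overexpressed and 3 libraries, labelled NC, were the control. The column names of both groups carry the prefix pHBLV. The fat depot, the breed, age and sex of the animals, the promoter behind MEOX2, the content of the NC control and the time of harvest were not stated in any source used. Nor do the labels say whether the 3 replicates of a group came from separate animals or cultures, so p-values reflect only how these samples vary, and that variation may be technical.

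Within a HOX cluster all genes point the same way and carry numbers by their order along the chromosome. Genes with the same number in different clusters are paralogues and form a paralogue group. In the embryo, low-numbered genes are used from the head end backwards and high-numbered genes only towards the tail end and the outer limb. Connective tissue cells, fat precursors among them, keep a HOX pattern that reflects the body site they came from, and keep it in culture. Groups 1 to 3 are called anterior here, 4 to 8 central and 9 to 13 posterior.

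Libraries held 11772772 to 12230863 reads, recovered as whole numbers from the FPKM values. MEOX2, a mesodermal homeobox gene outside the clusters (ENSOARG00000008280, chromosome 4, 24100798 to 24175729), stood at 152.7, 107.7 and 138.4 FPKM in the overexpressing libraries and at 10.8, 10.1 and 9.03 FPKM in NC. The groups did not overlap, the means were 132.9 ± 23.0 and 9.98 ± 0.910 FPKM (SD, n = 3 each), 13.3-fold apart, and limma gave a log2 change of 3.60 (SE 0.13, adjusted p = 1.15e-05). An exact two-sided permutation test gave p = 0.1, the smallest that 3 against 3 samples allow. All 5 stromal progenitor markers were present, with means of 135.6 (PDGFRB) to 10002 FPKM (COL1A1), and none was called different between the groups. Of 5 adipocyte markers, 4 fell with MEOX2, beside 1.16% of all genes tested: ADIPOQ and FABP4 kept the call in all alternatives run, while PLIN1 and CIDEC lost it in 7 of 16 each. The summed adipocyte markers ranged from 116.8 to 140.6 FPKM with MEOX2 and from 283.9 to 338.0 FPKM in NC. Their part in the HOX values was not tested. Of markers of other cell types, the 3 endothelial ones matched reached at most 0.223 FPKM in any library, and EPCAM, MYOD1 and MYF5 were listed at 0. The leukocyte markers CD68 and LAPTM5 averaged 8.47 and 1.97 FPKM and the epithelial marker KRT8 1.16 FPKM, while PTPRC, which defines leukocytes, averaged 0.0108 FPKM. The 4 leukocyte markers summed to 8.98 to 11.7 FPKM with MEOX2 and 10.7 to 11.6 FPKM in NC, and none was called. On the first principal component of all genes tested (34.0% of the variance) the groups separated, and on the second (22.2%) NC replicate 3 lay at -21.2 while the other 5 libraries lay between -8.12 and 14.2.

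The HOX rows together summed to 160.0 ± 8.23 FPKM (SD, n = 6), and most of that lay in the middle of the clusters. Central genes held 57.4% ± 1.93, posterior genes 37.1% ± 1.66 and anterior genes 5.57% ± 1.08 of the sum (SD, n = 6). Paralogue groups 6 to 10 alone held 82.97% ± 1.17. Of the 14 rows in those groups, 13 had a mean of at least 1 FPKM, against 3 of 8 anterior rows and 1 of 7 rows in groups 11 to 13. HOXA11 and HOXD11 had no row by that name, so HOXC11 alone stood for group 11. The 6 rows of groups 12 and 13 had 31 reads between them in all 6 libraries.

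**Figure D1:**
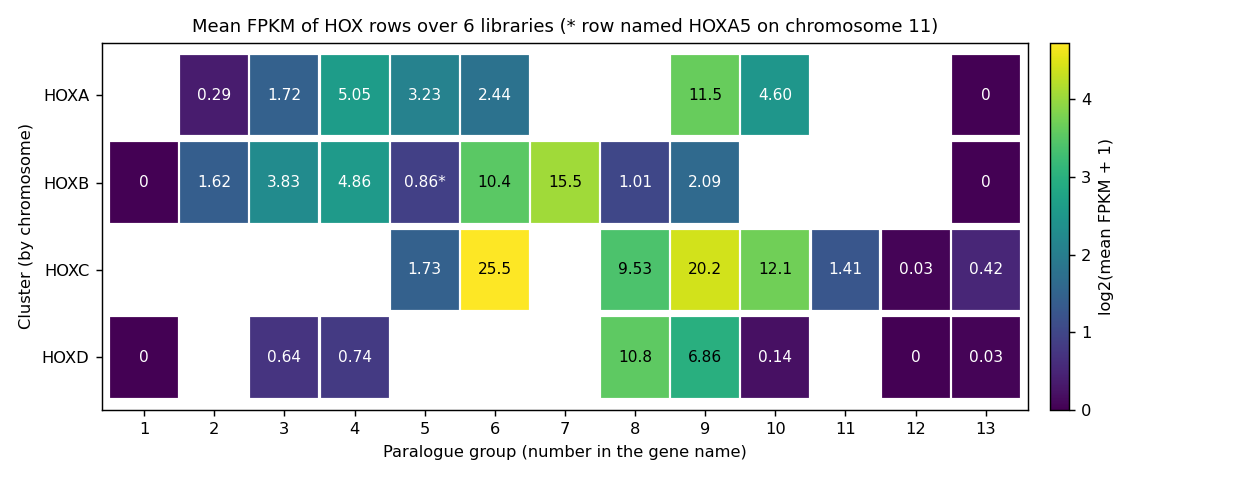
Mean FPKM over the 6 libraries of 34 HOX rows, arranged by cluster (vertical axis) and paralogue group (horizontal axis). Colour is log2(mean FPKM + 1), the number in each cell is the mean FPKM, and blank cells have no value shown. The brightest cells are HOXC6 (25.5 FPKM) and HOXC9 (20.2 FPKM), and groups 12 and 13 are dark in each cluster that has them.

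The clusters contributed unequally. HOXC genes held 44.3% ± 1.15 of the HOX FPKM, HOXB genes 25.1% ± 1.28, HOXA genes 18.5% ± 1.53 and HOXD genes 12.02% ± 0.934 (SD, n = 6). HOXC had the largest share in each library, between 42.2% and 45.6%. The number of rows with a mean of at least 1 FPKM was 6 of 9 in HOXA, 7 of 10 in HOXB, 6 of 8 in HOXC and 2 of 8 in HOXD.

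Of the HOXC genes, on chromosome 3 from 132334178 to 132429375 (minus strand; the build behind the table's coordinates was not stated), HOXC6 was the highest HOX gene of the cells. HOXC6 (ENSOARG00000016296) belongs to a central group used in the chest region of the body axis. It stood at 25.3, 21.6 and 27.4 FPKM with MEOX2 and at 27.0, 26.6 and 25.4 FPKM in NC. HOXC9 (ENSOARG00000016319), a posterior gene of the lower trunk, stood at 21.3, 21.9 and 23.0 FPKM with MEOX2 and at 17.6, 19.4 and 17.9 FPKM in NC. These were the 2 highest rows, and HOXC6 was above HOXC9 in 5 of 6 libraries, MEOX2 replicate 2 being the exception. HOXC10, known to differ between human fat depots, had 9.70, 13.2 and 11.7 FPKM with MEOX2 and 11.8, 15.2 and 11.02 FPKM in NC. HOXC8, between HOXC6 and HOXC9, had a mean of 9.53 ± 1.33 FPKM (SD, n = 6).

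Levels fell steeply on both sides of the run from HOXC6 to HOXC10. HOXC5, 2.34 kb from HOXC6 on the anterior side, averaged 1.73 ± 0.701 FPKM and was below HOXC6 in 6 of 6 libraries. Beyond HOXC5 lies ENSOARG00000016271, a homeobox row without a symbol, which averaged 5.89 FPKM and was above HOXC5 in each library. HOXC5 is therefore not shown to be the anterior limit of expression. On the posterior side HOXC10 was 8.61-fold above HOXC11, which lies 9.83 kb further on and averaged 1.41 ± 0.210 FPKM. HOXC12 averaged 0.0331 FPKM on 2 reads in all, and HOXC13 0.418 FPKM on 27 reads. The 2 genes with most reads were HOXC6, with 431 to 536 per library, and HOXA10, with 199 to 281.

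The HOXB cluster on chromosome 11 (37337231 to 37509285, plus strand) had its highest levels at HOXB6 and HOXB7 and was the cluster with most anterior signal. HOXB7 stood at 15.5, 13.3 and 15.9 FPKM with MEOX2 and at 15.2, 16.1 and 17.3 FPKM in NC. HOXB6 stood at 9.41, 11.1 and 12.2 FPKM with MEOX2 and at 9.18, 11.1 and 9.64 FPKM in NC. In both, the groups overlapped. From HOXB7 to HOXB8, 3.67 kb apart, the mean level was 15.4-fold lower, at 1.01 ± 0.553 FPKM, and HOXB8 rested on 1 to 10 reads per library. HOXB9 averaged 2.09 ± 0.616 FPKM, and HOXB13, 73.2 kb beyond HOXB9 and known as the most tail-end HOXB gene, was listed at 0.

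Towards the anterior end of HOXB, HOXB4 averaged 4.86 ± 1.33 FPKM, HOXB3 3.83 ± 1.22 FPKM and HOXB2 1.62 ± 0.823 FPKM (SD, n = 6), and HOXB1, a hindbrain gene of the embryo, was listed at 0. HOXB3 and HOXB2 were the highest rows of groups 3 and 2 in all 6 libraries. A row named HOXA5 (ENSOARG00000007034) lies on chromosome 11 at 37445110 to 37446597, between HOXB6 and HOXB4, and averaged 0.865 ± 0.298 FPKM. In the RefSeq annotation of another assembly (ARS-UI_Ramb_v3.0) the gene at that place in the order is HOXB5, which names no row of the table. The identity of the chromosome 11 row was not settled, and it is kept apart from HOXA5 on chromosome 4.

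In the HOXA cluster on chromosome 4 (plus strand), HOXA9 was the highest gene. HOXA9, a posterior gene also known for its part in blood stem cells, had 8.05, 11.6 and 11.5 FPKM with MEOX2 and 15.5, 10.9 and 11.3 FPKM in NC. MEOX2 replicate 1 was the lowest of the 6 and NC replicate 1 the highest, and the other 4 libraries lay between 10.9 and 11.6 FPKM. HOXA4 averaged 5.05 ± 0.581, HOXA10 4.60 ± 0.544, HOXA5 3.23 ± 0.550, HOXA6 2.44 ± 0.561 and HOXA3 1.72 ± 0.650 FPKM (SD, n = 6). HOXA2 stayed under the 1 FPKM limit, at 0.291 FPKM. HOXA13, a gene of the outer limb and the hind end, was listed at 0. The HOXA5 row (68876468 to 68891655) contains the whole HOXA6 row (68885113 to 68890705), so how their shared reads were divided is uncertain. In the RefSeq order HOXA7 lies between HOXA9 and HOXA6, and the HOXA5 row covers part of that stretch. No row is named HOXA7, and whether the HOXA5 row holds HOXA7 reads was not settled.

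The HOXD cluster on chromosome 2 (132820016 to 132915560, minus strand) had a narrow pattern of 2 adjacent genes. HOXD8 stood at 9.75, 12.3 and 10.3 FPKM with MEOX2 and at 9.59, 9.86 and 13.03 FPKM in NC. HOXD9 stood at 8.37, 5.95 and 7.57 FPKM with MEOX2 and at 5.73, 8.21 and 5.36 FPKM in NC. HOXD10 begins 3.86 kb from HOXD9 and averaged 0.137 FPKM, 50.2-fold lower, with 10 reads in all 6 libraries. HOXD9 was above HOXD10 in every library. On the other side, HOXD3 and HOXD4 averaged 0.638 ± 0.304 and 0.742 ± 0.406 FPKM. The end genes HOXD1 and HOXD12 were listed at 0 and HOXD13, which shapes the digits, had 2 reads in all.

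HOXA13, HOXB1, HOXB13, HOXD1 and HOXD12 had 0 reads in all 6 libraries. A count of 0 allows up to 3 reads over the 6 libraries, which corresponds to a mean of 0.0112 FPKM for HOXB1, 0.0481 for HOXB13, 0.0497 for HOXD1, 0.0525 for HOXD12 and 0.125 for HOXA13, for counting error only. MEN1, a gene of nearly all cells, was also listed at 0, so a row at 0 does not by itself show that its gene was silent.

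**Figure D2:**
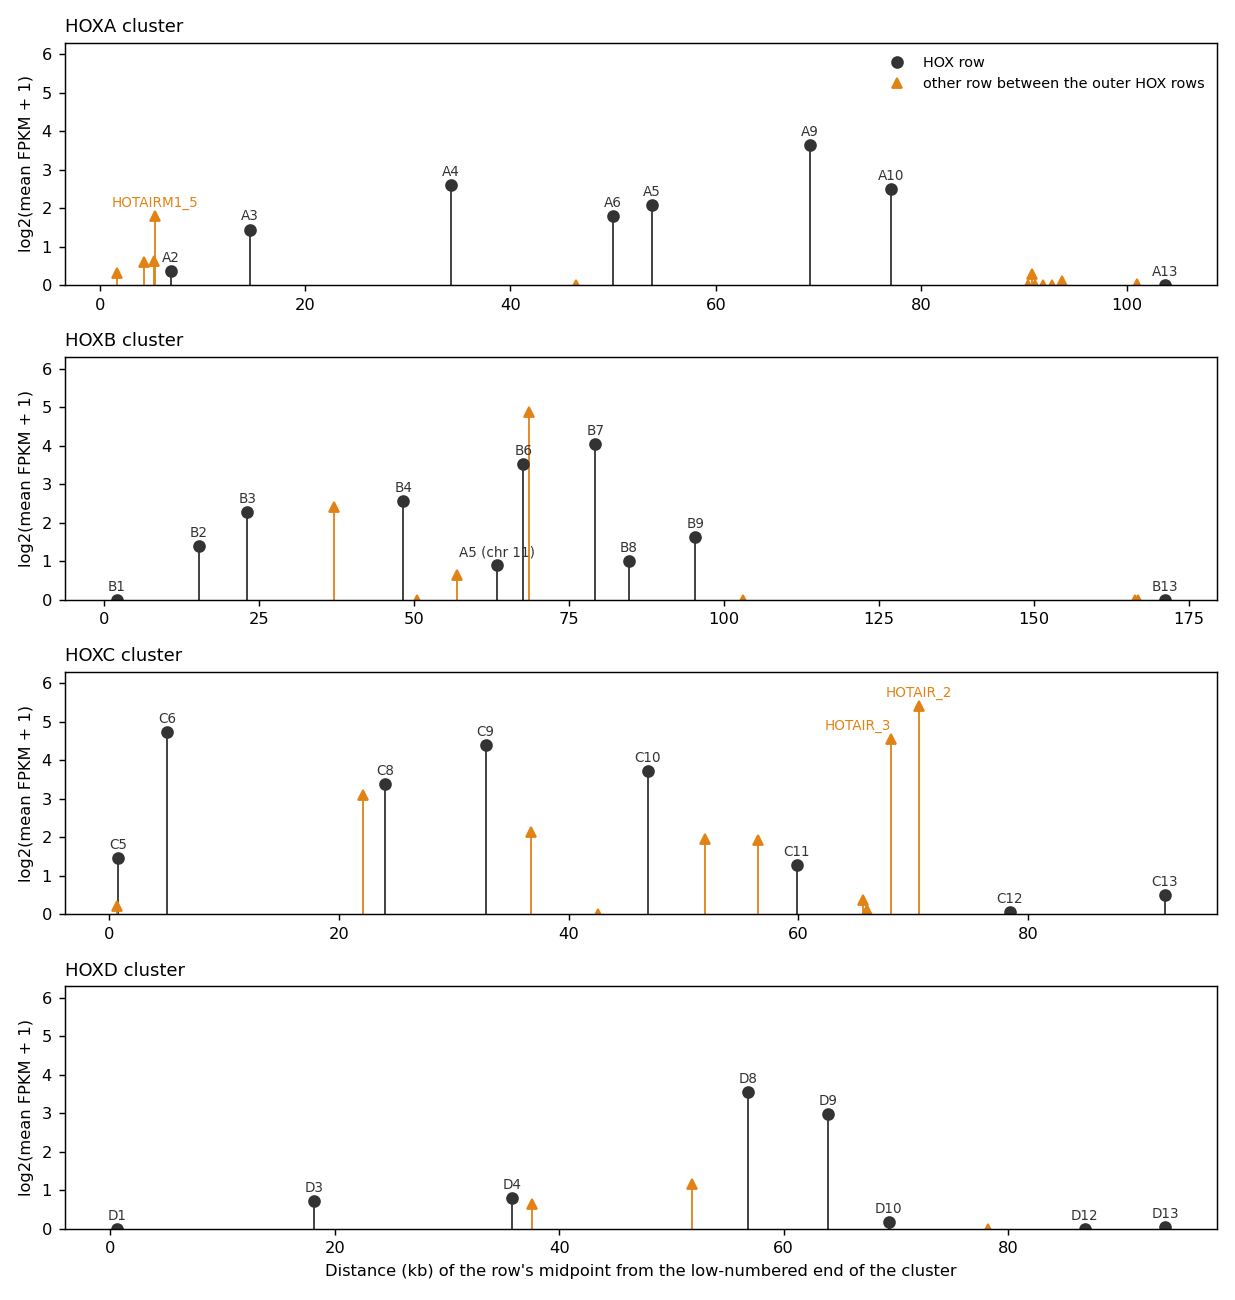
HOX rows (black circles) and the other rows between the outer HOX rows of each cluster (orange triangles, unlabelled where under 2 FPKM or without a symbol), by distance in kb from the low-numbered end of the cluster (horizontal axis) and log2(mean FPKM + 1) over 6 libraries (vertical axis). HOXD8 and HOXD9 stand alone in HOXD, while HOXC carries high rows from HOXC6 to HOXC10 and, further on, HOTAIR_3 and HOTAIR_2.

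Among paralogues, the same cluster did not lead in each group. HOXC genes were the highest of groups 6, 9 and 10: HOXC6 was 2.45-fold above HOXB6, HOXC9 1.76-fold above HOXA9 and HOXC10 2.63-fold above HOXA10, each in 6 of 6 libraries. For group 10 this turned when counted in reads, where HOXA10, with the longer gene model, had 199 to 281 per library and HOXC10 112 to 189, lower in 6 of 6. In group 5 HOXA5 was 1.86-fold above HOXC5, in group 3 HOXB3 was 2.23-fold above HOXA3 and in group 2 HOXB2 was 5.58-fold above HOXA2, again in 6 of 6. The lead in group 5 depends on the HOXA5 row, whose reads are uncertain. Groups 4 and 8 had no clear leader, since HOXA4 was above HOXB4 in 3 of 6 libraries and HOXD8 above HOXC8 in 4 of 6.

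The order of the levels was similar in all libraries. Over the 35 rows Spearman's rho between 2 libraries lay between 0.964 and 0.988 for the 15 pairs, a description across genes that share the same libraries. In the order of the 21 rows above the limit, only HOXC9 (17.6 to 23.0 FPKM) and the next row, HOXB7 (13.3 to 17.3 FPKM), had ranges that did not overlap. The ranges of the other 19 neighbouring pairs overlapped. Within libraries, HOXB7 was still above HOXC10, HOXC8 above HOXD9 and HOXD9 above HOXA4 in 6 of 6, and the remaining 16 pairs kept their order in 3 to 5 of 6. HOX levels were modest beside those of other genes: 4 of 21 rows lay above the median of the 13121 genes that averaged 1 FPKM or more, which was 11.5 FPKM, and 70.8% of those genes lay below HOXC6. Just inside the 1 FPKM limit were HOXB8 (1.01 FPKM) and HOXC11 (1.41 FPKM), and just outside it the chromosome 11 row named HOXA5 (0.865 FPKM).

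**Figure D3:**
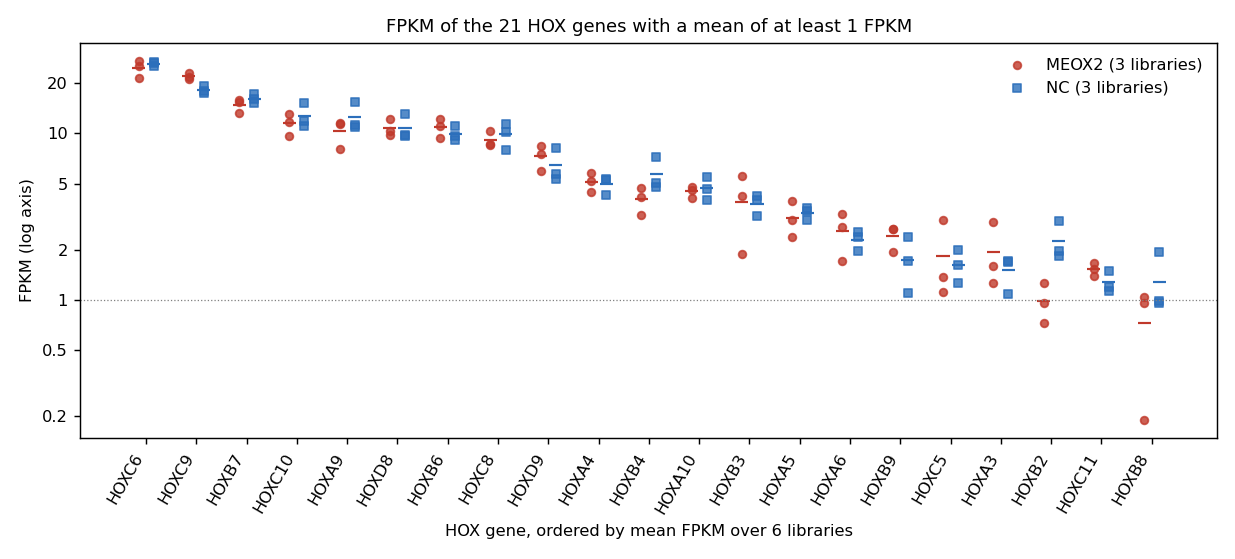
FPKM (log axis) of the 21 HOX genes that averaged 1 FPKM or more, in order of their mean (horizontal axis), with red circles for the 3 MEOX2 libraries, blue squares for the 3 NC libraries and short lines for group means. The colours overlap for most genes; they are apart for HOXC9, where NC is lower, and for HOXB4 and HOXB2, where MEOX2 is lower.

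Levels per length depend on the gene models. In 31 of 35 rows the length was a multiple of 3, as for a coding length without untranslated regions. HOXA10, with 4252 bases, was one of the 4 exceptions, beside HOXB1, HOXC6 and HOXD8, so its 4.60 FPKM rests on 1422 reads in all, more than the 1161 of HOXC9. Counted in reads, posterior genes held 39.5% of the HOX total, HOXC genes 49.3% and HOXA genes 25.1%, so HOXA then passed HOXB, at 17.7%.

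The design compares the MEOX2 libraries with NC, and no HOX gene was called different between them. Of the 21 HOX genes tested by limma on log2(FPKM + 1), 0 had an adjusted p under 0.05, beside 2.67% of all 13121 genes (350). An unadjusted p under 0.05 was found for 3 of 21 (14.3%), beside 13.4% of all genes, and groups that did not overlap for 3 of 21 (14.3%), beside 18.9% of all genes (9.60% higher and 9.33% lower with MEOX2). Those 3 genes were the same in both counts: HOXB2, HOXC9 and HOXB4. With limma voom on the recovered reads 0 of 21 were called, beside 4.37% of all genes, and 2 had an unadjusted p under 0.05, beside 14.2%. The HOX shares were thus near the shares of all genes.

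HOXB2, an anterior gene of the hindbrain and neck, had the largest difference. It stood at 0.730, 0.953 and 1.26 FPKM with MEOX2 and at 1.98, 1.84 and 2.98 FPKM in NC, on 7, 10 and 13 reads against 20, 19 and 31. Each MEOX2 library was below each NC library. The means were 0.981 ± 0.266 and 2.27 ± 0.621 FPKM (SD, n = 3 each), a ratio of 0.433. The log2 change on the log2(FPKM + 1) scale was -0.71 (95% interval -1.14 to -0.29, limma adjusted p = 0.105). Over the alternatives the limma adjusted p lay between 0.0760 and 0.265, and leaving out NC replicate 3, the highest library, gave a log2 change of -0.56.

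HOXC9, the second highest gene, was above NC in each MEOX2 library by the values given with its cluster. Its means were 22.1 ± 0.864 FPKM with MEOX2 and 18.3 ± 0.973 FPKM in NC (SD, n = 3 each), a ratio of 1.21. The log2 change was 0.26 (95% interval 0.07 to 0.44, limma adjusted p = 0.175).

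HOXB4, known for expanding blood stem cells, stood at 4.18, 4.72 and 3.24 FPKM with MEOX2 and at 5.03, 7.26 and 4.76 FPKM in NC. The groups did not overlap, though MEOX2 replicate 2 and NC replicate 3 were close, at 37 reads each. The log2 change was -0.40 (95% interval -0.79 to -0.01, limma adjusted p = 0.359), and it was -0.23 without NC replicate 2, the highest library. A row without a symbol (37461792 to 37482574) begins 9 bases beyond HOXB4 on the same strand and reaches to near HOXB3. It had 3.82, 3.64 and 3.63 FPKM with MEOX2 and 5.40, 4.57 and 5.03 FPKM in NC, with no overlap and a limma adjusted p of 0.170. HOXB3, on the far side of that row, had 1.89, 5.55 and 4.196 FPKM with MEOX2 and 4.201, 3.97 and 3.18 FPKM in NC, so its groups overlapped and MEOX2 replicate 1 was the lowest. That library was also the lowest for the summed anterior genes, at 5.28 FPKM against 9.10 to 10.7 FPKM in the other 5.

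For the other 18 genes the intervals of the change held 0. The log2 changes of all 21 ran from -0.71 (HOXB2) to 0.35 (HOXB9), 9 above 0 and 12 below, with a median of -0.04, beside -0.00273 for all genes tested. Their median absolute log2 change was 0.12, beside 0.11 for all genes. A 2-fold change of FPKM + 1 in either direction lay outside the 95% interval for 19 of 21 genes, the exceptions being HOXB2 and HOXB8. A 1.5-fold change of FPKM + 1 lay outside it for 9 of the 10 genes with at least 5 FPKM, HOXA9 being the exception. Of the 11 lower genes this held for only 4. For HOXC6 the interval was -0.31 to 0.13 and for HOXD8 -0.31 to 0.31, so changes within these bounds remained possible. Changes on the log2(FPKM + 1) scale understate those of low genes, so these counts do not exclude changes of 2-fold or 1.5-fold in FPKM itself.

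**Figure D4:**
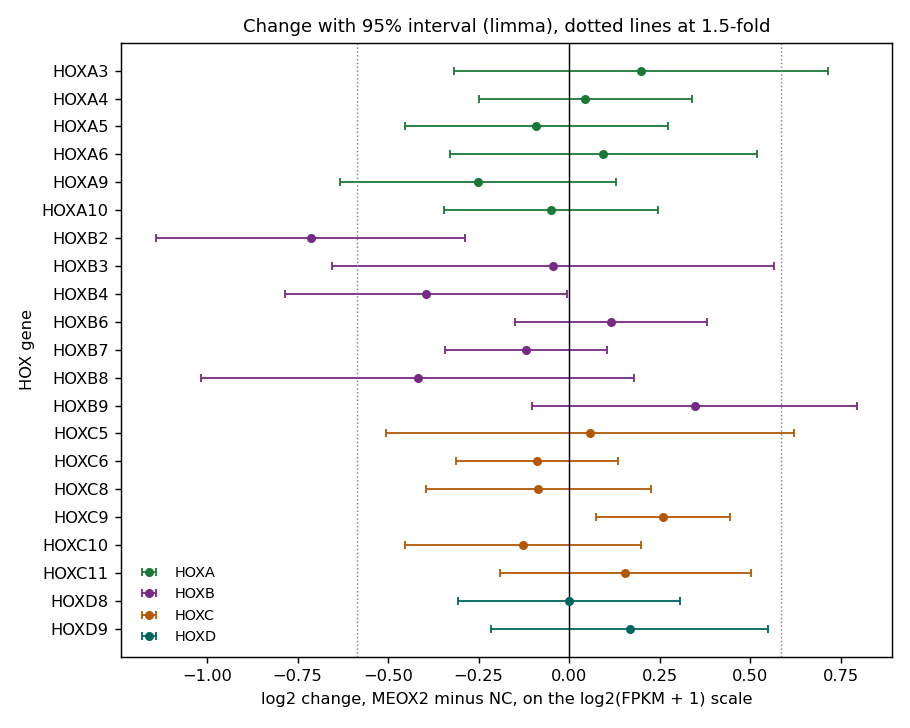
Difference between MEOX2 and NC for the 21 HOX genes tested, as log2 change on the log2(FPKM + 1) scale (horizontal axis), with the limma 95% interval as bars, by gene from HOXA3 to HOXD9 (vertical axis). Dotted lines mark 1.5-fold in FPKM + 1. The bars of HOXB2, HOXB4 and HOXC9 do not reach 0, and none of the 21 had a limma adjusted p under 0.05.

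No cluster moved as a block. The median log2 change was -0.00279 over 6 HOXA genes, -0.12 over 7 HOXB genes (2 above 0 and 5 below), -0.01 over 6 HOXC genes and 0.08 over 2 HOXD genes. The posterior share of the HOX FPKM was 37.9%, 39.4% and 36.7% with MEOX2 and 37.3%, 36.9% and 34.3% in NC, so the groups overlapped. The summed HOX FPKM was 158.9 ± 10.3 with MEOX2 and 161.2 ± 7.73 in NC (SD, n = 3 each), a difference smaller than either spread. In bulk samples, fewer cells that express a gene and less RNA per cell cannot be told apart.

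Other rows lie among the HOX genes, many of them non-coding RNAs. There were 32 between the outer HOX rows, of which 10 had a mean of at least 1 FPKM and 11 were listed at 0. HOTAIR is a long non-coding RNA of the HOXC cluster known for binding chromatin regulators. Its row HOTAIR_2 (chromosome 3, 132404624 to 132404692) is 69 bases long and stood at 39.5, 40.8 and 34.3 FPKM with MEOX2 and at 49.5, 41.4 and 44.6 FPKM in NC. HOTAIR_3, 98 bases long, stood at 20.6, 22.1 and 18.3 FPKM with MEOX2 and at 24.7, 30.0 and 19.0 FPKM in NC. The groups overlapped for HOTAIR_3 and, in FPKM, did not for HOTAIR_2. In reads the groups met for HOTAIR_2, with 35 in both MEOX2 replicate 2 and NC replicate 2. HOTAIR_2 and HOTAIR_3 lie between HOXC11 and HOXC12, 2 low genes, and both are short, with at least 29 and 22 reads per library. The table puts the HOTAIR rows on the strand of the HOXC genes and the strand setting of the counting is not given, so reads of either strand cannot be told apart there. HOTAIR_4 and HOTAIR_5 had 0 to 2 reads per library.

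None of the 10 tested rows inside the clusters was called by limma or by limma voom, and 3 had an unadjusted limma p under 0.05 (1 by limma voom), beside 13.4% of all genes (14.2% by limma voom). Those 3 were the row without a symbol beside HOXB4, HOTAIR_2 (log2 change -0.24, limma adjusted p = 0.331) and HOTAIRM1_5 (log2 change -0.84, limma adjusted p = 0.341). HOTAIRM1 is a non-coding RNA of the HOXA cluster, and its row HOTAIRM1_5 had 1 to 8 reads per library. Rows named for HOTTIP, an RNA from beyond HOXA13, were at 0 in 3 of 3, those for HOXB13-AS1 in 2 of 2, and those for HOXA11-AS1 in 4 of 6. Within HOXC, 4 rows without a symbol on the opposite strand averaged 2.79 to 7.54 FPKM, with limma adjusted p between 0.641 and 0.965. An unnamed row on the other strand, ENSOARG00000006940, overlaps HOXB6 and averaged 28.1 FPKM over 162 bases, so HOXB6 reads may be shared with it.

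Outside the clusters, 11 of the 24 nearest rows were tested and none was called. On the HOXC5 side lies ENSOARG00000016271 (chromosome 3, 132314501 to 132315663), a row with no symbol that the table assigns to the homeobox family. It had 4.88, 4.82 and 6.81 FPKM with MEOX2 and 6.21, 6.33 and 6.27 FPKM in NC (limma adjusted p = 0.650), and it was not counted among the HOX rows.

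HOX proteins bind DNA together with PBX, MEIS and PKNOX proteins. Of 9 such cofactor genes, 8 were tested and 0 were called by limma; the median log2 change was -0.05, 3 above 0 and 5 below. MEIS3 had 9.39, 6.90 and 8.98 FPKM with MEOX2 and 5.94, 6.52 and 4.62 FPKM in NC, with no overlap and a log2 change of 0.49. Its limma adjusted p was 0.156, and limma voom called it (adjusted p = 0.0308). MEIS2 (limma adjusted p = 0.523) and PBX3 (limma adjusted p = 0.617) followed by p.

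Polycomb and trithorax proteins keep HOX genes off and on. The list of chromatin regulators of HOX clusters held such proteins and others, CTCF among them. Of its 35 genes, 32 were matched and 30 tested, and 0 were called by limma or limma voom. Unadjusted limma p was under 0.05 for 3 of the 30, beside 13.4% of all genes, and 21 of 30 had a log2 change below 0, with a median of -0.08. EZH2, the methyltransferase of Polycomb complex PRC2, had 6.09, 7.02 and 6.77 FPKM with MEOX2 and 8.41, 8.62 and 8.02 FPKM in NC, with no overlap (log2 change -0.30, limma adjusted p = 0.196). CBX8, a reader of the PRC2 mark, had a log2 change of -0.34 (limma adjusted p = 0.236), and KDM6B, a demethylase that removes that mark, of -0.26 (limma adjusted p = 0.346). PCGF2, a subunit of PRC1, had -0.21 (limma adjusted p = 0.418).

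Retinoic acid and CDX factors switch on HOX genes in the embryo. Of 21 genes of this list 13 were tested, and 1 was higher with MEOX2, beside 1.51% of all genes higher. That gene was ALDH1A3, an enzyme that makes retinoic acid, which rose from 3.26, 3.09 and 2.57 FPKM in NC to 4.98, 7.27 and 6.18 FPKM with MEOX2 (log2 change 0.84, limma adjusted p = 0.0214). The call was lost in 6 of 16 alternatives, namely with no filter and without any 1 of the 5 libraries other than MEOX2 replicate 1, with limma adjusted p up to 0.0901. ALDH1A1, a related enzyme and the higher of the pair, had 40.2 ± 1.70 FPKM with MEOX2 and 53.5 ± 4.90 FPKM in NC (SD, n = 3 each; log2 change -0.40, limma adjusted p = 0.0522), and was called lower in 3 of 17 alternatives, limma voom among them. The retinoic acid receptor RARB stood, with MEOX2 and in NC, at 10.4 ± 0.348 and 7.77 ± 0.629 FPKM (limma adjusted p = 0.0866), and RXRA, the partner of such receptors, at 3.48 ± 0.149 and 5.78 ± 1.29 FPKM (limma adjusted p = 0.101). RXRA was called without NC replicate 3 (limma adjusted p = 0.0259). Unadjusted limma p was under 0.05 for 7 of the 13, beside 13.4% of all genes. CDX1, CDX2, CDX4 and CYP26C1 were listed at 0 in all libraries.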

How the data were processed

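The source was 1 table in which the authors deposited FPKM per gene for 6 sheep RNA sequencing libraries (3 MEOX2, 3 NC). TRIzol and the NEBNext Ultra RNA kit were used, per the labels' protocols, and, per the submitters' processing notes (roles not stated), featureCounts 1.5.0-p3, HISAT2 2.0.5, DESeq2 1.20.0, CASAVA 1.8 and fastp. Not given in the sources used here were the genome build, annotation and strand setting. Coordinates are those of the table. FPKM times gene length gave whole reads for 100% of values (tolerance 0.01 of a read). Chi-square per gene between replicates was 3.62 to 11.8, above the value near 1 of sampling noise, so none were counted as 1 sample.

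For the test, limma 3.58.1 in R 4.3.3 (intensity trend, no covariates) was run on log2(FPKM + 1) of the 13121 genes averaging 1 FPKM or more in the 6 samples. P-values were Benjamini-Hochberg adjusted over all 13121, with 0.05 as the threshold. The fit was tested on simulated data with changes set only in genes above a limit of reads. HOXA3, HOXA4, HOXA5, HOXA6, HOXB2, HOXB3, HOXB4, HOXB8, HOXB9, HOXC5, HOXC11 and HOXD9 did not exceed that limit. The simulation gave no result for changes in genes with so few reads. Tables were made with Python 3.11.15, pandas 2.3.3, numpy 2.4.6 and scipy 1.17.1. The members, the lists and the rule for named genes (MEOX2, all HOX rows, rows among or next to them, and of each list up to 4 tested genes with the smallest p and all called genes) were chosen with earlier results of these data known. Alternatives were other pseudocounts, filters, scalings and variance models, limma voom on recovered reads, a replicate block and each library left out. HOXA7, HOXA11, HOXB5 and HOXD11, 4 of the 38 HOX genes that RefSeq (ARS-UI_Ramb_v3.0) names in sheep, have no row by that name and were not analysed here. Some gene values are not reported here.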

Additional observations from a re-analysis of the deposited data

How the results depend on the processing

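The count of HOX genes called stayed at 0 under all 17 alternative fits, and the lowest limma adjusted p of any HOX gene in them was 0.0760 (HOXB2, without the intensity trend). Among all genes, 350 were called, against 194 with no filter, 574 with limma voom, and 117 (without NC replicate 1) to 276 (without NC replicate 3) with 1 library left out. Same-numbered libraries showed no clear shared deviation from their group means (correlations -0.0747, 0.0204 and -0.00417). With 3 libraries per group, this cannot show whether they shared an origin. A fit with the replicate block called 242 genes and 0 HOX genes. Of 346 HOX log2 changes under alternatives, 21 in 11 genes had the other sign, all without a call.

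The number of HOX rows counted as expressed was 21, 25 at 0.5 FPKM, 16 at 2 FPKM, 19 with 1 FPKM in every library, and 18 with 10 reads in every library. The posterior share of 37.1% was 39.5% counted in reads, 44.1% without HOXC6, and 36.6% to 37.6% with 1 library left out. Depth limits the low rows: counting alone gives a coefficient of variation of 24.5% for HOXB2 and 4.50% for HOXC6. Over all 6 libraries, both groups pooled, the coefficients were 50.7% and 8.18%, so they also hold any difference between the groups. The HOXB2 group means differed, 0.981 (MEOX2, SD 0.266) against 2.27 (NC, SD 0.621), so its 50.7% does not measure noise within groups.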
